A study of Homo sapiens with 15 samples.

Results

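The genes described here are the 5 subunits of the transcription factor NF-kB and 5 genes that act back on the pathway, measured in Hodgkin lymphoma cell lines and in other malignant B cell lines. Of 10 listed genes, 9 had at least 1 probe set annotated to that gene alone, out of 19775 genes measured on the array in this way. They were NFKB1, NFKB2, REL, RELA, RELB, NFKBIA, NFKBIE, TNFAIP3 and TRAF1. The 2 probe sets of the listed gene BCL3, an atypical IkB protein that binds NF-kB p50 and p52 in the nucleus, were also annotated to a microRNA gene, so BCL3 was given no value. Where a gene had several probe sets, the one with the highest mean signal on the 15 arrays stands for it.

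Affymetrix U133 Plus 2.0 arrays, which measure messenger RNA by hybridisation to short oligonucleotide probes, were used on total RNA of 9 lymphoid lines, 15 arrays in all. Hodgkin lines were HDLM2, KM-H2, L1236, L428, L540 and its subline L540Cy, all labelled classical Hodgkin lymphoma. L540 and L540Cy were averaged to 1 line of origin where Hodgkin lines were compared as a group (5 Hodgkin lines in all). The 3 lines they were set against, called non-Hodgkin here, were Reh from acute lymphoblastic leukaemia and Namalwa and SU-DHL-4 from non-Hodgkin lymphoma. L540, L540Cy and SU-DHL-4 had 1 array each and the other 6 lines had biological duplicates per the design text. Every line comes from 1 patient and has been grown in culture, untreated as far as the labels say, and HDLM2 and L540 are known as T cell-derived Hodgkin lines. The signals come from whole cultures, in which fewer cells expressing a gene and less RNA per cell cannot be told apart.

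NF-kB dimers are held in the cytoplasm by IkB proteins. In the classical pathway a kinase complex marks IkB alpha (NFKBIA) for destruction and frees dimers of RELA or REL with p50, made from NFKB1. In the alternative pathway the kinase NIK drives the processing of p100, the product of NFKB2, to p52, which pairs with RELB. NFKBIA, NFKBIE, TNFAIP3 (the ubiquitin-editing enzyme A20), TRAF1 and NFKB2 are themselves transcribed under NF-kB, so their RNA is often read as a sign of pathway activity, while protein and nuclear location were not measured here. Constant NF-kB activity is a known feature of Hodgkin and Reed-Sternberg cells, in which gains of REL and loss of NFKBIA or TNFAIP3 are recurrent.

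Promoter sequences of the genes are shown because the reading of these RNAs rests on NF-kB acting on its own genes. RefSeq windows (GRCh38.p14) of 300 bases, from 250 before to 50 after a transcription start, were found for 8 of the 10 listed genes and not for RELB or NFKBIE. Both strands were searched for the 10-base kappa B consensus, and matches on the 2 strands overlapped in REL and in NFKB2. A match lay in a window of 6 of the 8 genes, against 7.09% of 27305 genes with a window, and in 7 of 14 windows of these genes, against 5.91% of 35116 windows. The 200 bases before the start are printed 5′ to 3′ on the gene's strand, with consensus matches on either strand in capitals.
NFKB1 (chr4:102501159-102501358, + strand): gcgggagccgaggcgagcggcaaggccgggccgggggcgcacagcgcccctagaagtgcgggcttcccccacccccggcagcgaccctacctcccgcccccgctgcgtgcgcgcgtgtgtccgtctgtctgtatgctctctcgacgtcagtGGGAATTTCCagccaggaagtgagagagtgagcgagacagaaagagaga
NFKB2, middle start site (chr10:102394378-102394577, + strand): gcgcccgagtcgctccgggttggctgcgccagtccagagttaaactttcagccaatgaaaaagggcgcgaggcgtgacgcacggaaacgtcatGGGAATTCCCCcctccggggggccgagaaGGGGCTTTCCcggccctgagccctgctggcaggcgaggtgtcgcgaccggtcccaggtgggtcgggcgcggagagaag
NFKB2, last start site (chr10:102395505-102395704, + strand): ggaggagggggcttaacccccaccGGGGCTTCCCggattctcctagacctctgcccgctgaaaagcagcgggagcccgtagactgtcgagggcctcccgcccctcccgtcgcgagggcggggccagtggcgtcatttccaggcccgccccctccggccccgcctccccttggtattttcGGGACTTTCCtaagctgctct
REL (chr2:60881374-60881573, + strand): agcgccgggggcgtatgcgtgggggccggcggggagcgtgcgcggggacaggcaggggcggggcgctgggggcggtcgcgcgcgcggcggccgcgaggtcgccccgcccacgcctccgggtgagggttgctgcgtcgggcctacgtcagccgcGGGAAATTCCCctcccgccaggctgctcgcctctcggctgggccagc
NFKBIA (chr14:35404750-35404949, - strand): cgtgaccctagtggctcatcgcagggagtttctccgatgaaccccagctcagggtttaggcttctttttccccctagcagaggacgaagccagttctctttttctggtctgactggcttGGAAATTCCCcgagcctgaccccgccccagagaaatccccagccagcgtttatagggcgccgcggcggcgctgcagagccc
TNFAIP3 (chr6:137867059-137867258, + strand): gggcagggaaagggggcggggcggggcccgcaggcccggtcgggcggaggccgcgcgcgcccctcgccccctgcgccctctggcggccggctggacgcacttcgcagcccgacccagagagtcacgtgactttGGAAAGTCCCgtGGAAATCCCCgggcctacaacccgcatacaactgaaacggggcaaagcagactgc
NFKB2 held matches in 2 of its 3 windows, those of the middle and last start sites, and the last one carried matches 176 to 167 and 21 to 12 bases before the start. In TNFAIP3 2 matches lay side by side, from 67 to 58 and from 55 to 46 bases before the start. The single NFKBIA match lay 81 to 72 bases before the start and read in the opposite direction to the gene. NFKB1 had 1 match, 49 to 40 bases before the start of its first window, and BCL3 had 1 match just after its start. These letters were not in the windows of RELA and TRAF1. The matches describe sequence only, since no binding was measured.

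Array medians lay between 5.50 and 5.56 log2. All log2 values are RMA signals, the array's background-corrected, quantile-normalised and probe-summarised intensities, so 1 log2 is a doubling of signal. The SD between duplicate arrays over all genes was 0.170 to 0.256 log2 in the 4 duplicated Hodgkin lines, 0.371 in Namalwa and 0.442 in Reh. Reh replicate 1 carried genes that were high in SU-DHL-4. MS4A1, the B cell antigen CD20, was at 11.47 in Reh replicate 1, at 4.12 in Reh replicate 2 and at 12.48 in SU-DHL-4, and DCN, a matrix proteoglycan, was at 9.92 in SU-DHL-4, with 8.11 in Reh replicate 1 and 5.32 in Reh replicate 2. REL, RELB and TRAF1 differed between the Reh arrays in the same direction, as given with each gene. The precursor B cell markers DNTT, RAG1, RAG2 and IGLL1 were at 9.96 to 13.25 in Reh replicate 1 and at 11.07 to 14.20 in Reh replicate 2. In SU-DHL-4 they were at 3.35 to 5.32. Whether Reh replicate 1 is a mixed or mislabelled sample was not tested. Without that array the group differences were 2.84 log2 for NFKB2 (limma adjusted p = 0.00927), 2.71 for NFKBIA (adjusted p = 0.0486), 3.01 for TNFAIP3 (adjusted p = 0.447) and 3.40 for TRAF1 (adjusted p = 0.326), so the same 2 genes passed. The upper quartile of Namalwa replicate 2 was 7.30 log2, the lowest of the arrays. The summed log2 signal of 6 Hodgkin and Reed-Sternberg cell markers was 53.8 to 72.0 on Hodgkin arrays and 32.4 to 37.4 on non-Hodgkin arrays, with TNFRSF8 (CD30) and CCR7 higher. The sum of 5 B cell markers was 27.8 to 33.4 on Hodgkin arrays and 48.5 to 57.5 on non-Hodgkin arrays, with CD79A, CD79B and CD22 lower. Sums of 6 T cell markers were 32.1 to 40.0 on Hodgkin and 32.4 to 35.9 on non-Hodgkin arrays, those of 5 myeloid markers 24.6 to 31.2 on Hodgkin and 25.0 to 27.0 on non-Hodgkin arrays. Those of 5 stromal markers were 27.5 to 28.8 on Hodgkin and 28.7 to 32.4 on non-Hodgkin arrays, and 0 genes of these 3 lists passed the test between the groups. The sum of 5 precursor B cell markers was 20.5 to 21.8 on Hodgkin arrays and 22.9 to 54.2 on non-Hodgkin arrays, and 0 of these genes passed. Reh was high in DNTT, RAG1, RAG2 and IGLL1 but had VPREB1 at 4.18 and 3.65, whereas Namalwa, labelled non-Hodgkin lymphoma, had IGLL1 at 11.60 and 12.84 and VPREB1 at 10.01 and 10.11. RMA gives no gene a level of 0.

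Between the 5 Hodgkin and the 3 non-Hodgkin lines, 2 genes passed the test and both were higher in Hodgkin lines: NFKB2, the p100/p52 precursor, by 7.46-fold, and NFKBIA, the main IkB inhibitor, by 6.70-fold. TRAF1 and TNFAIP3 had differences just as large on average, 3.19 and 3.11 log2, and did not pass. L1236 was low in TRAF1 among the Hodgkin lines, and Reh was high in TNFAIP3 among the non-Hodgkin lines. Of the subunits, NFKB1, REL, RELA and RELB had no difference that passed. The test was limma on line means, with p-values adjusted over all 19775 genes by the Benjamini-Hochberg method and called under 0.05. Over the array, 0.759% of genes passed as higher and 0.612% as lower, and 0 of the 9 genes were lower. In 3 of 9 genes (NFKB1, NFKB2 and NFKBIA) every Hodgkin line lay above every non-Hodgkin line, against 5.17% of all genes, and in 0 of 9 every Hodgkin line lay below, against 5.5% of all genes. The median difference was 1.04 log2 over the 9 genes and -0.02 log2 over all genes tested, and 5 of the 9 had an unadjusted p under 0.05, as had 14.2% of all genes.

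**Figure D1:**
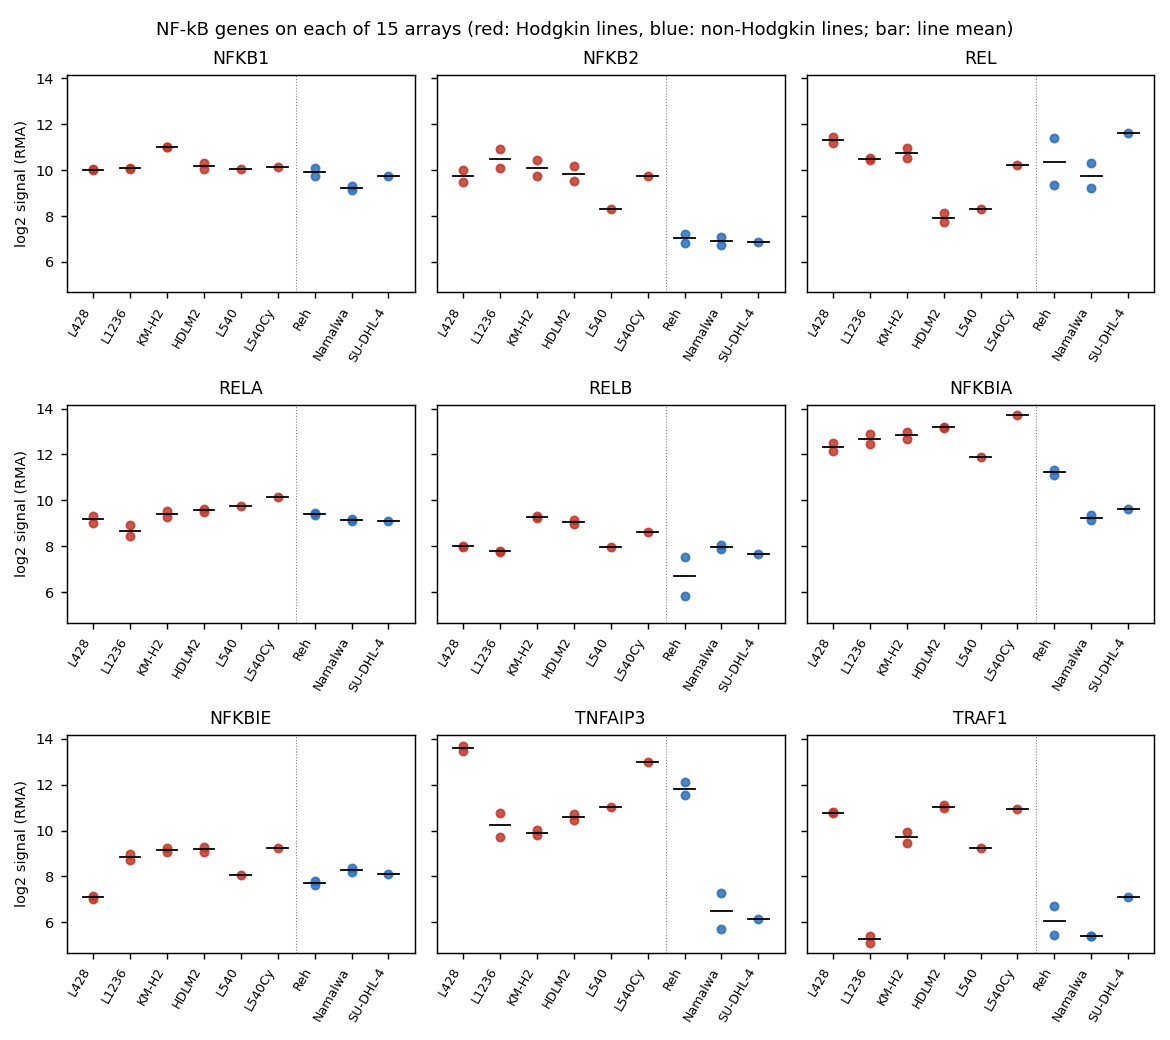
Log2 RMA signal of the 9 genes (y axis, 1 panel a gene) on each of 15 arrays, by cell line (x axis), with Hodgkin lines in red on the left, non-Hodgkin lines in blue on the right and a bar at each line's mean. NFKB2 and NFKBIA separate the 2 groups, L1236 stands low in TRAF1, Reh stands high in TNFAIP3, and HDLM2 and L540 stand low in REL.

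NFKB2 separated the groups most clearly. Its log2 signals were 9.47 and 10.01 in L428, 10.11 and 10.91 in L1236, 9.75 and 10.46 in KM-H2, 9.52 and 10.16 in HDLM2, 8.30 in L540 and 9.73 in L540Cy, against 6.83 and 7.22 in Reh, 6.74 and 7.09 in Namalwa and 6.89 in SU-DHL-4. The lowest Hodgkin array, L540, lay above the highest non-Hodgkin array, a replicate of Reh. Over lines it averaged 9.84 ± 0.55 (SD, n = 5) in Hodgkin and 6.94 ± 0.07 (SD, n = 3) in non-Hodgkin lines, a difference of 2.90 ± 0.30 log2 (SE, limma adjusted p = 0.00673). A second NFKB2 probe set differed by 2.52 log2 (r = 0.881 with the first over 15 arrays), while the last one was at 3.41 to 4.08 on every array and showed 0.05 log2.

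In the order of lines, L1236 had the highest NFKB2 mean and did not differ from its neighbour KM-H2 beyond the 95% interval of the fit with 1 mean per line. L540Cy exceeded L540 by 1.43 log2, beyond that interval, and L540 exceeded Reh by 1.28 log2, also beyond it. Both gaps take single arrays to vary like the duplicated lines, and these intervals are not adjusted for the number of genes.

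NFKB1, which encodes the p105 precursor of p50, was highest in KM-H2. KM-H2 had 11.01 and 11.03, and the other Hodgkin lines had means of 10.02 in L428 to 10.18 in HDLM2, against 10.10 and 9.74 in Reh, 9.15 and 9.29 in Namalwa and 9.76 in SU-DHL-4. By line means the groups did not overlap, but the first Reh array exceeded several Hodgkin arrays. Hodgkin lines averaged 10.28 ± 0.42 (SD, n = 5) and non-Hodgkin lines 9.63 ± 0.37 (SD, n = 3), a difference of 0.65 ± 0.27 log2 (SE, limma adjusted p = 0.345). KM-H2 was above the next line, HDLM2, by 0.83 log2, and at the bottom SU-DHL-4 was above Namalwa by 0.54 log2, both beyond the 95% interval.

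RELB, the subunit that pairs with p52, was highest in KM-H2 (9.25 and 9.32) and HDLM2 (9.13 and 8.96). L428 had 7.98 and 8.02, L1236 7.76 and 7.78, L540 7.97 and L540Cy 8.62, against 7.54 and 5.84 in Reh, 8.06 and 7.87 in Namalwa and 7.65 in SU-DHL-4. Namalwa lay above L1236 and level with L540, so the groups overlapped. Hodgkin lines averaged 8.48 ± 0.66 (SD, n = 5) and non-Hodgkin lines 7.43 ± 0.66 (SD, n = 3), and the difference of 1.04 ± 0.44 log2 did not pass (SE, limma adjusted p = 0.343). Reh replicate 1 was 1.70 log2 above Reh replicate 2 in RELB, the widest gap between duplicates of this gene.

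REL, which encodes c-Rel, the subunit typical of B cells, showed no common direction in Hodgkin lines. It was at 11.42 and 11.18 in L428, 10.55 and 10.43 in L1236, 10.97 and 10.55 in KM-H2, 8.13 and 7.73 in HDLM2, 8.33 in L540 and 10.24 in L540Cy, against 11.38 and 9.36 in Reh, 10.31 and 9.20 in Namalwa and 11.62 in SU-DHL-4. HDLM2 and L540 lay below every other array, and SU-DHL-4 had the highest level of all. The group means were 9.95 ± 1.35 (SD, n = 5) in Hodgkin and 10.58 ± 0.95 (SD, n = 3) in non-Hodgkin lines, a difference of -0.63 ± 0.81 log2 (SE, limma adjusted p = 0.763). The 5 REL probe sets had group differences from -1.01 to 0.01 log2, and the other 4 correlated with the one used at r = 0.705 to 0.953 over 15 arrays. No neighbours in the order of REL levels differed beyond the 95% interval. That interval draws on the Reh duplicates, which were 2.02 log2 apart (SD 1.43). Duplicates of Hodgkin lines had an SD of 0.09 log2 in L1236 to 0.30 in KM-H2.

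RELA, the p65 subunit present in most cells, had the smallest difference of the 9 genes. Hodgkin arrays ran between 8.45, an L1236 array, and 10.16, in L540Cy, with a mean over lines of 9.36 ± 0.48 (SD, n = 5). Non-Hodgkin arrays ran between 9.11 and 9.46, with a mean of 9.22 ± 0.16 (SD, n = 3). The ranges overlapped fully, and the difference of 0.14 log2 had a 95% interval of -0.50 to 0.77 (limma adjusted p = 0.849).

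NFKBIA, the inhibitor that NF-kB induces to end its own activity, also separated the groups. It was at 12.50 and 12.15 in L428, 12.48 and 12.91 in L1236, 13.00 and 12.67 in KM-H2, 13.21 and 13.17 in HDLM2, 11.89 in L540 and 13.74 in L540Cy, against 11.12 and 11.32 in Reh, 9.36 and 9.13 in Namalwa and 9.62 in SU-DHL-4. No Hodgkin array fell below any non-Hodgkin array, and Reh lay between the Hodgkin lines and the pair Namalwa and SU-DHL-4. The averages were 12.77 ± 0.31 (SD, n = 5) in Hodgkin and 10.03 ± 1.05 (SD, n = 3) in non-Hodgkin lines, a difference of 2.74 ± 0.44 log2 (SE, limma adjusted p = 0.0347). Reh exceeded SU-DHL-4 by 1.60 log2 and L540 exceeded Reh by 0.67 log2, both beyond the 95% interval. The call on NFKBIA ended when any 1 line other than Reh was left out (adjusted p = 0.0556 without L428 to 0.131 without SU-DHL-4) and without the L540Cy array (adjusted p = 0.0610), with the difference between 2.35 and 2.86 log2 throughout. A second, dim NFKBIA probe set at 4.81 to 5.75 showed 0.37 log2.

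NFKBIE encodes IkB epsilon, an inhibitor that is induced later than IkB alpha. It was at 7.17 and 7.02 in L428, 8.72 and 8.99 in L1236, 9.24 and 9.09 in KM-H2, 9.07 and 9.30 in HDLM2, 8.05 in L540 and 9.24 in L540Cy, against 7.82 and 7.61 in Reh, 8.18 and 8.39 in Namalwa and 8.12 in SU-DHL-4. L428 was the lowest line of all, below Reh by 0.62 log2, and L540 lay among the non-Hodgkin lines. The 4 other Hodgkin lines were above every non-Hodgkin array. Hodgkin lines averaged 8.59 ± 0.86 (SD, n = 5), non-Hodgkin lines 8.04 ± 0.29 (SD, n = 3), and the difference of 0.55 ± 0.48 log2 did not pass (SE, limma adjusted p = 0.654).

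TNFAIP3, whose product A20 removes activating ubiquitin chains upstream of the IkB kinases, had the widest range of the inhibitors. Its signals were 13.48 and 13.68 in L428, 9.72 and 10.77 in L1236, 9.80 and 10.01 in KM-H2, 10.47 and 10.71 in HDLM2, 11.04 in L540 and 12.97 in L540Cy, against 11.53 and 12.10 in Reh, 7.28 and 5.73 in Namalwa and 6.15 in SU-DHL-4. Reh lay above 4 of the 6 Hodgkin lines, whereas Namalwa and SU-DHL-4 lay below all of them, with a gap of 3.40 log2 between KM-H2 and Namalwa. The means were 11.27 ± 1.52 (SD, n = 5) in Hodgkin and 8.16 ± 3.17 (SD, n = 3) in non-Hodgkin lines, and the difference of 3.11 ± 1.46 log2 did not pass (SE, limma adjusted p = 0.396). Without Reh it was 4.94 log2 (adjusted p = 0.106). Both Reh arrays carried the signal, and the second TNFAIP3 probe set followed the first over the arrays (r = 0.989).

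TRAF1, an adaptor of TNF receptors that is induced by NF-kB, was high in 5 of the 6 Hodgkin lines. It was at 10.79 and 10.76 in L428, 5.11 and 5.43 in L1236, 9.46 and 9.94 in KM-H2, 11.09 and 10.96 in HDLM2, 9.22 in L540 and 10.96 in L540Cy, against 6.70 and 5.44 in Reh, 5.39 and 5.42 in Namalwa and 7.09 in SU-DHL-4. The arrays of L1236 lay in the range of the non-Hodgkin arrays or below it, and every other Hodgkin array was above all of them. The second TRAF1 probe set gave 3.94 and 4.32 in L1236, also its lowest line. The means were 9.37 ± 2.35 (SD, n = 5) in Hodgkin and 6.19 ± 0.85 (SD, n = 3) in non-Hodgkin lines, with a difference of 3.19 ± 1.31 log2 (SE, limma adjusted p = 0.329). Leaving out L1236 gave 4.21 log2 and an adjusted p of 0.0198.

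**Figure D2:**
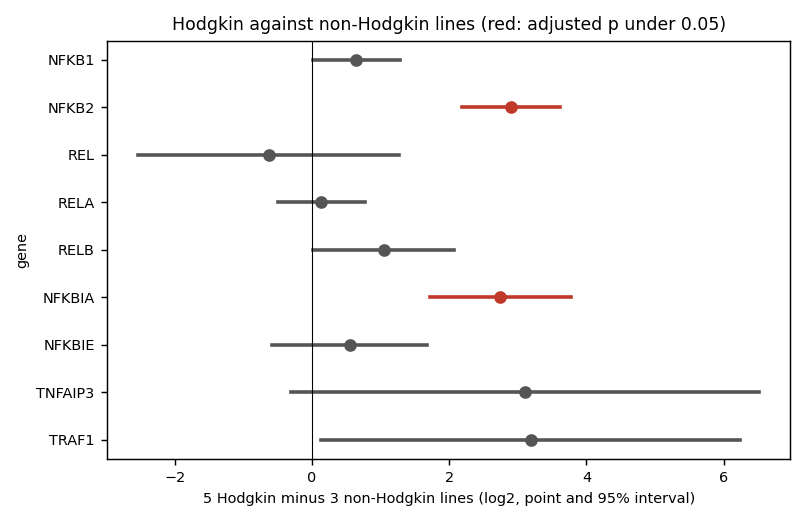
Difference between 5 Hodgkin and 3 non-Hodgkin lines of origin (x axis, log2) with its 95% interval for each of the 9 genes (y axis), in red where the adjusted p was under 0.05. NFKB2 and NFKBIA have intervals far above 0, while TNFAIP3 and TRAF1 have means as high with intervals several times as wide.

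Each Hodgkin line was next set against the mean of the non-Hodgkin lines, with the spread between duplicate arrays as the error, so that these tests describe the lines on the arrays and not Hodgkin lines in general. The 6 comparisons share the same 5 non-Hodgkin arrays. NFKB2, NFKBIA and TNFAIP3 were higher than the non-Hodgkin mean in all 6 lines. Of these, NFKB2 in L540 lost its call without Namalwa replicate 1 (adjusted p = 0.0542), TNFAIP3 in KM-H2 without KM-H2 replicate 2 (adjusted p = 0.0723) and TNFAIP3 in L1236 without L1236 replicate 2. In TNFAIP3, L540, HDLM2, L1236 and KM-H2 were above the non-Hodgkin mean but below Reh, whose line mean was 11.82 log2. TRAF1 was higher in 5 and lower than the non-Hodgkin mean in L1236. The L1236 mean, 5.27 log2, lay 0.14 log2 below that of Namalwa, 5.41. In the fit with 1 mean per line that gap was within its interval of 0.76 log2 either side. Reh replicate 2 was at 5.44, while Reh replicate 1 was at 6.70 and SU-DHL-4 at 7.09. L1236, Namalwa and Reh replicate 2 lay under 6 log2, the level taken as dim here, so the size of the TRAF1 difference in L1236 is uncertain. Over the 9 lines all 9 genes differed by limma's moderated F test, against 51.9% of all genes.

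In L428, 4 of the 9 genes were higher and 1 lower, against 14.1% and 12.6% of all genes. TNFAIP3 was highest there, at 5.42 ± 0.40 log2 (SE) above the non-Hodgkin mean, with TRAF1 at 4.59 log2, while NFKBIE was lower by -0.95 log2 (limma adjusted p = 0.000764). In L1236, 5 were higher and 2 lower, against 16.7% and 12.4% of all genes. NFKB2 was highest in that line at 3.56 ± 0.30 log2, with RELA at -0.54 log2 (adjusted p = 0.0322) and TRAF1 at -0.92 log2 (adjusted p = 0.0382). The calls of TRAF1 and NFKB1 (0.44 log2, adjusted p = 0.0410) in L1236 ended in 9 and 10 of 19 alternatives. That of RELA ended without L1236 replicate 1 (-0.31 log2, adjusted p = 0.358), and that of TNFAIP3 without L1236 replicate 2 (1.56 log2, adjusted p = 0.0537).

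KM-H2 had 7 higher and 0 lower of 9, against 16.7% and 13.2% of all genes. It was the line with the highest NFKB1 (1.38 ± 0.14 log2) and RELB (1.85 ± 0.35 log2) differences. HDLM2 also had 7 higher, and 1 lower, against 15.5% and 13.9% of all genes. The lower one was REL at -2.65 ± 0.47 log2 (limma adjusted p = 0.00177), while TRAF1 at 4.84 log2, NFKBIA at 3.16 log2 and RELB at 1.61 log2 were higher. The T cell marker CD2 was at 11.30 and 10.19 on the HDLM2 arrays, against 4.74 to 5.38 on non-Hodgkin arrays, and CD3E was at 5.13 and 4.95, against 5.03 to 6.03. CD3D, CD3G, CD5 and CD7 were at 4.08 to 6.70 on the HDLM2 arrays, against 4.52 to 7.04 on non-Hodgkin arrays. The sum of the 6 T cell markers was 40.0 and 37.5 on the HDLM2 arrays, and of the 6 only CD2 was clearly raised. The L540 array, also low in REL, had CD2 at 6.70 and a sum of 35.8, within the range of the non-Hodgkin arrays, 32.4 to 35.9. KM-H2, with REL at 10.97 and 10.55, had sums of 35.6 and 35.4, and L540Cy, with REL at 10.24, had a sum of 33.3. The part of these markers in the REL difference was not tested.

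L540 had 4 higher and 1 lower of 9, against 9.65% and 9.13% of all genes, and L540Cy had 6 higher and 0 lower, against 12% and 12% of all genes. In L540 REL was lower at -2.25 ± 0.62 log2 (limma adjusted p = 0.0295) and NFKB2 was higher by 1.36 log2 (adjusted p = 0.0361). In L540Cy REL was at -0.34 log2 (adjusted p = 0.823), NFKBIA reached 3.71 log2 and RELA 0.94 log2 (adjusted p = 0.00909). Without Reh replicate 1, Reh rests on replicate 2, which had the lowest RELB of the arrays, 5.84, and the Reh duplicates leave the error. Over the 19 alternatives the RELB difference went down to 0.28 log2 in L428, 0.06 in L1236, 0.25 in L540 and 0.90 in L540Cy. The REL difference in L428 went down to 0.38 log2. RELB was called in KM-H2 and HDLM2 with all arrays. Without Reh replicate 1 it was also called in L428 (0.85 log2), L1236 (0.62 log2), L540 (0.82 log2) and L540Cy (1.47 log2), with adjusted p-values of 0.000127 to 0.00521. NFKB1 (0.44 log2, adjusted p = 0.0305) and REL (1.06 log2, adjusted p = 0.0209) were then also higher in L428, and NFKB1 in L540Cy (0.58 log2, adjusted p = 0.0283). The count of higher genes in L428 was then 7 of 9, against 14.7% of all genes.

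**Figure D3:**
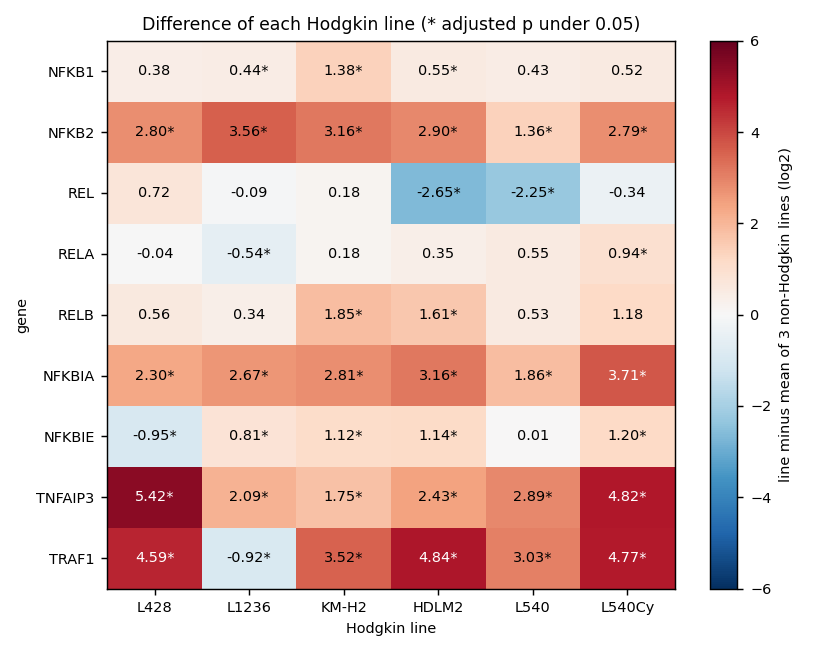
Difference of each of the 6 Hodgkin lines (x axis) from the mean of the 3 non-Hodgkin lines for the 9 genes (y axis), written and coloured as log2, with a star where the adjusted p was under 0.05. The rows of NFKB2, NFKBIA and TNFAIP3 are positive in every line, TRAF1 turns to -0.92 in L1236, and REL reaches -2.65 in HDLM2 and -2.25 in L540.

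The subline L540Cy was above its parent L540 in all 9 genes, as were 46.8% of all genes, and by at least 1 log2 in 6 of 9, against 2.91% of all genes. Each has 1 array, so the fit with 1 mean per line was used, in which both are assumed to vary like the duplicated lines. TNFAIP3 was at 12.97 in L540Cy, against 11.04 in L540, a difference of 1.93 log2. REL differed by 1.92 log2, NFKBIA by 1.84, TRAF1 by 1.73, NFKB2 by 1.43 and NFKBIE by 1.19 log2. RELB, RELA and NFKB1 differed by 0.65, 0.39 and 0.10 log2. In that fit NFKBIA (limma adjusted p = 0.0151) and NFKBIE (adjusted p = 0.0442) were higher in L540Cy, so 2 of 9 passed as higher and 0 as lower, against 0.642% and 0.845% of all genes. The other 7 did not pass (adjusted p = 0.141 for TRAF1 and 0.265 for NFKB2). Without Reh replicate 1 TRAF1 passed too (adjusted p = 0.0134), making 3 of 9, against 0.981% of all genes. The second probe sets of NFKB2 (9.18 in L540Cy, 7.80 in L540), TNFAIP3 (12.01 in L540Cy, 9.76 in L540) and TRAF1 (7.62 in L540Cy, 5.76 in L540) showed the same direction. The other REL probe sets were also higher in L540Cy, the brightest of them at 9.17 against 7.41 in L540. The largest gaps between duplicates of 1 line were 0.80 log2 in NFKB2, 0.43 in NFKBIA, 0.27 in NFKBIE, 1.27 in TRAF1, 1.56 in TNFAIP3 and 2.02 in REL. That of TRAF1 was between the Reh arrays. Leaving out Reh replicate 1 took it out of the error and left the TRAF1 difference of L540Cy from L540 at 1.73 log2. The REL gap between L540Cy and L540 was no larger than that between the Reh arrays, of which replicate 1 is in doubt. It was larger than that between the Namalwa arrays, at 10.31 and 9.20 in REL. In Reh itself 3 of 9 genes (REL, RELB and TRAF1) were at least 1 log2 higher in replicate 1 than in replicate 2, against 3.16% of all genes.

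**Figure D4:**
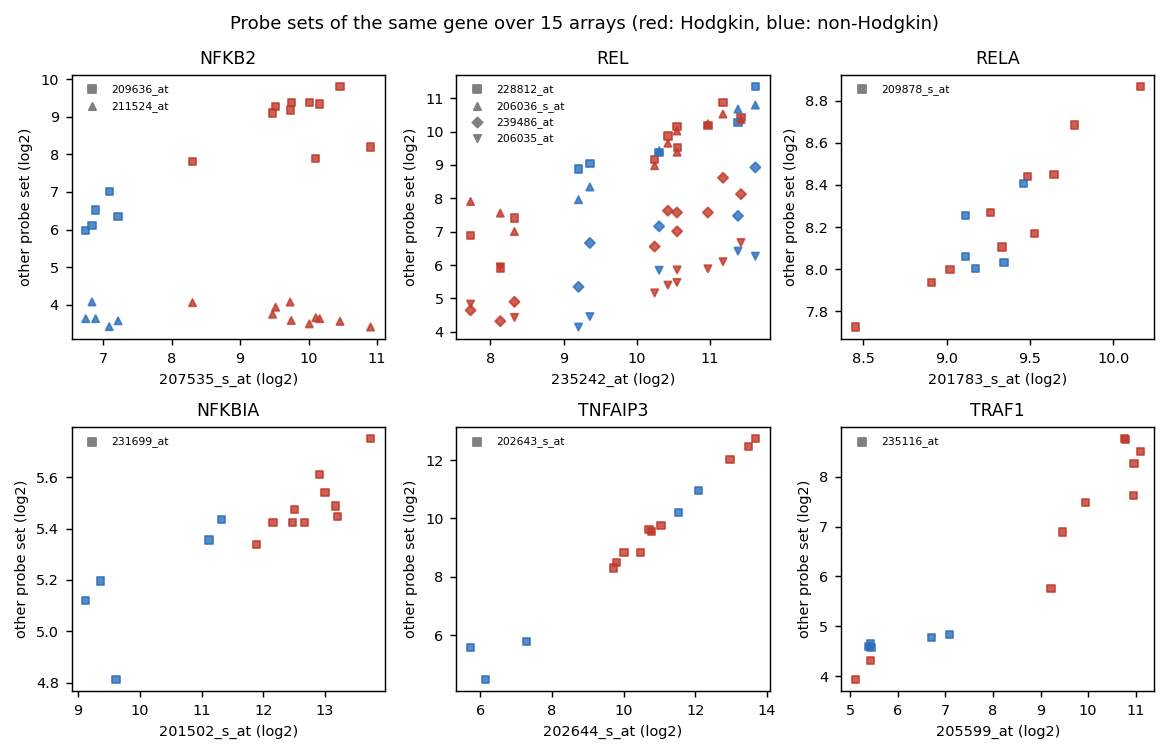
Log2 signal of the other probe sets of a gene (y axis) against the one used (x axis) on 15 arrays, for the 6 genes with several probe sets, with Hodgkin arrays in red and non-Hodgkin arrays in blue. The probe sets of TNFAIP3, TRAF1 and RELA rise together, and one of NFKB2 (triangles) stays between 3.41 and 4.08 on all arrays.

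Across the 8 lines of origin, NFKB2 and NFKBIA had the highest Pearson r of any pair of the 9 genes, 0.893, and REL and NFKBIE the lowest, -0.552. These values describe 8 points that share the split into Hodgkin and non-Hodgkin lines. By the same measure, the genes of wide range most like NFKB2 were AHNAK (r = 0.988), IL1R2 (0.982), the decoy receptor for interleukin 1, and ERC2 (0.980). Those most like NFKBIA were RAB27A (0.983), a small GTPase of secretory vesicles, FUT4 (0.980), the enzyme that makes the Hodgkin cell antigen CD15, and MAML2 (0.977), a NOTCH coactivator. HRH1, the histamine H1 receptor, ACTA2 and KSR1 came closest to TRAF1 (r = 0.904 to 0.959). CGGBP1, RBM43 and ZDHHC8 came closest to TNFAIP3 (r = 0.937 to 0.966), and PRPSAP2, TIGD1 and MTREX to REL (r = 0.927 to 0.954). For NFKB1 they were SLC39A11, AGAP3 and ARHGAP10, for RELA AHI1, NDRG1 and MED28, for RELB LRRC61, EXT1 and CPEB2, and for NFKBIE IL27RA, AIFM2 and NR1D2, at r = 0.879 to 0.967.

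Around the 9 genes, other lists of the pathway were counted in the same comparison. These lists were chosen with earlier results of these data known, so the counts are a description only. The target list also holds CCR7 and CCL17, which are among the Hodgkin and Reed-Sternberg cell markers. Over all 19775 genes 0.759% passed as higher and 0.612% as lower, the shares to set beside each list. Of 38 measured target genes 11 were higher in Hodgkin lines and 0 lower. Their median difference was 2.66 log2, against -0.02 log2 over all genes tested. CCND2, cyclin D2, was higher by 8.42 log2, CCR7, a chemokine receptor, by 8.06, FAS, a death receptor, by 6.88 and TNFRSF9 (4-1BB) by 5.75 log2 (limma adjusted p = 0.000103 to 0.0432). Their non-Hodgkin means were 4.18 log2 for CCND2, 4.34 for CCR7, 4.64 for FAS and 4.69 for TNFRSF9. All 4 lay under 6 log2, the level taken as dim here, and detection above background was not assessed, so the sizes of these differences are uncertain. Of 24 measured kinases and adaptors 3 were higher and 0 lower, with a median of 0.21 log2. They were TRADD, an adaptor of TNF receptor 1, at 1.15 log2 (adjusted p = 0.0404), TAB3, a partner of the kinase TAK1, at 1.11 log2 (adjusted p = 0.0273), and RIPK2, the kinase of NOD signalling, at 0.91 log2 (adjusted p = 0.0270). The calls of TRADD, RIPK2 and TNFRSF9 ended in 8 of 22 alternatives each and that of TAB3 in 15. MAP3K14, which encodes NIK, the kinase that drives p100 processing, was looked up after its values were seen. It averaged 8.48 ± 0.67 (SD, n = 5) in Hodgkin and 6.52 ± 0.41 (SD, n = 3) in non-Hodgkin lines, a difference of 1.96 log2 that did not pass (adjusted p = 0.0731). Of 18 measured other IkB proteins and A20 partners 0 passed, with a median of 0.64 log2, and the largest values were 2.84 log2 for RNF11 (adjusted p = 0.193), a partner of A20, and 2.47 log2 for TNIP3 (adjusted p = 0.342).

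**Figure D5:**
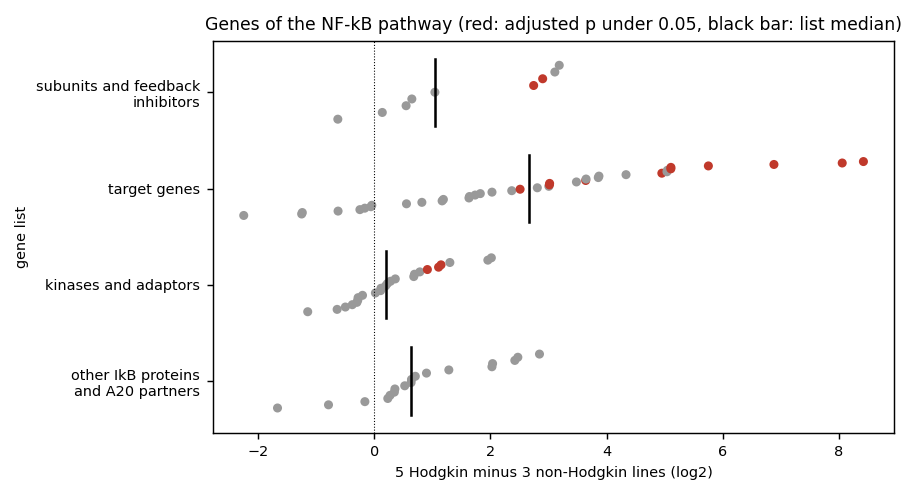
Difference between Hodgkin and non-Hodgkin lines (x axis, log2) for each measured gene of the 9 subunits and feedback inhibitors and of 3 other NF-kB lists (y axis), in red where the adjusted p was under 0.05, with a black bar at each list's median. The target genes have the median farthest above 0, at 2.66 log2, and the kinases and adaptors have a median of 0.21 log2. The lists were chosen with earlier results of these data known.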

How the data were processed

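The labels name 15 arrays of 9 lines, and the authors deposited a table of log2 signals made with RMA, per the submitters' processing notes. No version of RMA is given in the sources used here. The table holds 54675 probe sets, and 62 control probe sets were left out. Symbols came from GEO's platform annotation: 41091 probe sets had 1 symbol, 1801 several and 11721 none, and only the first kind was used. Where a gene had several, the one with the highest mean signal was taken, which left 19775 genes. Of the probe sets with 1 symbol, 41037 matched a RefSeq gene by Entrez ID, and 0 were renamed.

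Differences were tested with limma 3.58.1 in R 4.3.3 (two-sided, Benjamini-Hochberg over all genes, threshold 0.05). Hodgkin and non-Hodgkin lines were compared on line means (5 against 3). Lines were compared with 1 mean per line, with 6 residual degrees of freedom from the 6 lines with 2 arrays. The scripts were tested on simulated data. The genes and lists were chosen with earlier results of these data known. All 9 measured genes are named, with BCL3 named only. Of other lists, up to 4 of the largest rises that passed are named, or the 2 largest differences as values where fewer than 2 passed. The 3 genes most like each were taken by r among genes whose lines span at least 2 log2. Alternatives covered the probe set, normalisation, dim genes (mean under 6 log2), the variance model, L540 and L540Cy, the replicate number and left-out lines or arrays. The test of L540Cy against L540, the group comparison without Reh replicate 1, Namalwa replicate 2 or L540, and the fit of the 12 numbered arrays without the number were chosen after seeing the data. The precision is limited by the number of arrays, and no scan dates were used.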

Additional observations from a re-analysis of the deposited data

Results flagged for a closer look

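In 3 of the 9 genes, 1 Hodgkin line stood apart from the other 4 by Dixon's test at its 95% critical value, which chance passes in about 1 of 20 groups and which 10.4% of all 19775 genes passed in these lines. KM-H2 was high in NFKB1, at a line mean of 11.02 log2, with HDLM2 the nearest at 10.18. L428 was low in NFKBIE, at 7.09 log2, with the nearest line, the mean of L540 and L540Cy, at 8.64. L1236 was low in TRAF1, at 5.27 log2, with KM-H2 the nearest at 9.70. Both arrays of each of these lines carried the value.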

How the results depend on the processing

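NFKB2 was called higher in Hodgkin lines under all 22 alternatives (1.82 to 3.11 log2, adjusted p up to 0.0395), and NFKBIA in 14 of 22. The count of genes called higher was therefore 1 without the L540Cy array and 1 to 2 when each line was left out in turn; without L1236 TRAF1 took the place of NFKBIA. The labels do not say that a duplicate number marks a shared batch. Same-numbered arrays deviated together at r = -0.07 to 0.36 over 15 pairs of lines, with r over 0 in 14 and over 0.1 in 10. In the pairs among L428, L1236, KM-H2 and HDLM2 r was 0.246 to 0.355, and in those of Reh with these lines 0.144 to 0.216. This is a hint from the data of a shared effect in Hodgkin lines and Reh. Pairs with Namalwa had r of -0.07 to 0.06. As r was not over 0.1 in every pair, the numbers were not taken as pairing. The fit by line with the replicate block set the unnumbered arrays of L540, L540Cy and SU-DHL-4 with replicate 1, which their labels do not give. In that fit genes called lower in L1236 numbered 1 and REL in L1236 differed by 0.0265 log2. It also called RELA higher in L540, at 0.624 log2. On the 12 numbered arrays, with each line as a random block, 328 and 243 genes passed as higher and lower with the replicate block and 416 and 275 without it, a fit chosen after seeing the data. In both of these fits, which leave out L540, L540Cy and SU-DHL-4, REL differed by 0.0578 and RELA by -0.0686 log2 between the groups. Against 150 and 121 by line means, counts of all genes were 599 and 475 with all 15 arrays in a random block, 233 and 191 with L540 and L540Cy as 2 lines, and 68 to 158 and 69 to 112 when a line was left out. Leaving out 1 array gave 0 to 2 genes called lower and 3 to 6 called higher in L1236, and 4 to 7 called higher in L428. Small differences changed sign. With 1 line left out RELA ranged over -0.0149 to 0.306 log2 between the groups. With 1 array left out RELA in L428 ranged over -0.200 to 0.113, NFKBIE in L540 over -0.0297 to 0.0399, REL in KM-H2 over -0.159 to 0.516 and REL in L1236 over -0.431 to 0.244 log2, and with centred arrays NFKBIE in L540 was -0.00846 log2. With 1 array left out, calls also ended for RELB (adjusted p = 0.0543) and NFKB1 (adjusted p = 0.155) in HDLM2. The cause was not tested. All 9 genes passed the F test under all 19 alternatives.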
